A study of Mus musculus with 9 samples.

Results

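This comparison set the oviduct of sexually mature mice in diestrus against that of mature mice in estrus. Arrays were chosen by their titles, diestrus 1 to 3 and estrus 1 to 3, which gave 6 of the 9 arrays of the series. All animals were CD1 females that had received no hormone. No age beyond sexual maturity was stated for the mature animals. Each array carried total RNA, extracted with RNAzol, of whole oviducts pooled from 5 animals, so that the 3 estrus arrays and the 3 diestrus arrays stand for 3 pools each and the p-values measure the spread between pools. The 3 remaining arrays, of sexually immature females of day 21, entered the fit only to help estimate the spread. Affymetrix gene arrays gave 1 log2 intensity for each of 28214 probe sets, as the authors deposited it.

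The oviduct receives the ovulated egg, is the site of fertilisation and carries the early embryo towards the uterus. Its lining holds ciliated cells, which move the egg, and secretory cells, which make the tubal fluid, on a bed of stroma and smooth muscle. Estrogen from growing follicles acts on this tissue before and around ovulation, and progesterone from the corpora lutea acts on it in diestrus. Receptors of both hormones are transcription factors held ready by chaperone complexes. Hormone targets, chaperones, lipid metabolism and the cells that clear debris were among the 57 gene lists followed here. The lists were chosen with earlier results of these data known. Counts of their members beside the share of all probe sets are therefore description only.

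Markers of the tissue were well above the array medians, which lay between 8.85 and 8.90, on all 6 arrays. The mean of the 5 ciliated cell markers (Foxj1, Tppp3, Dnah5, Ccdc39 and Tekt1) was 11.62, 11.69 and 11.48 in estrus 1, 2 and 3 and 11.55, 11.67 and 11.48 in diestrus 1, 2 and 3. That of the secretory cell markers Pax8, Krt7 and Epcam was 11.60, 11.59 and 11.59 in estrus and 11.58, 11.56 and 11.48 in diestrus. The ciliated values overlapped between the stages, and the secretory values of diestrus lay just below those of estrus. Other cell types were less even. The smooth muscle markers Acta2, Myh11, Des and Tagln averaged 11.63, 11.68 and 11.82 in estrus and 11.70, 11.75 and 12.54 in diestrus, so diestrus 3 stood above the other 5 arrays. Diestrus 3 was also highest for stroma, endothelium, macrophages and uterus. The uterus markers Foxa2, Hoxa11 and Hoxd11 averaged 8.68, 8.46 and 8.60 in estrus and 8.60, 8.58 and 9.04 in diestrus. Of these, Hoxd11 was at 9.38 on diestrus 3, Foxa2 was not highest there and Hoxa11 lay below the array medians on all 6 arrays. Markers of the corpus luteum (Cyp11a1, Star and Akr1c18) averaged 7.83, 7.72 and 7.67 in estrus, below the array medians, and 8.01, 10.34 and 8.80 in diestrus, so that diestrus 2 stood far above the rest. Markers of T and NK cells, neutrophils, oocytes and the vagina and cervix lay below the medians on all 6 arrays. The plot of marker levels shows these arrays side by side.

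**Figure D1:**
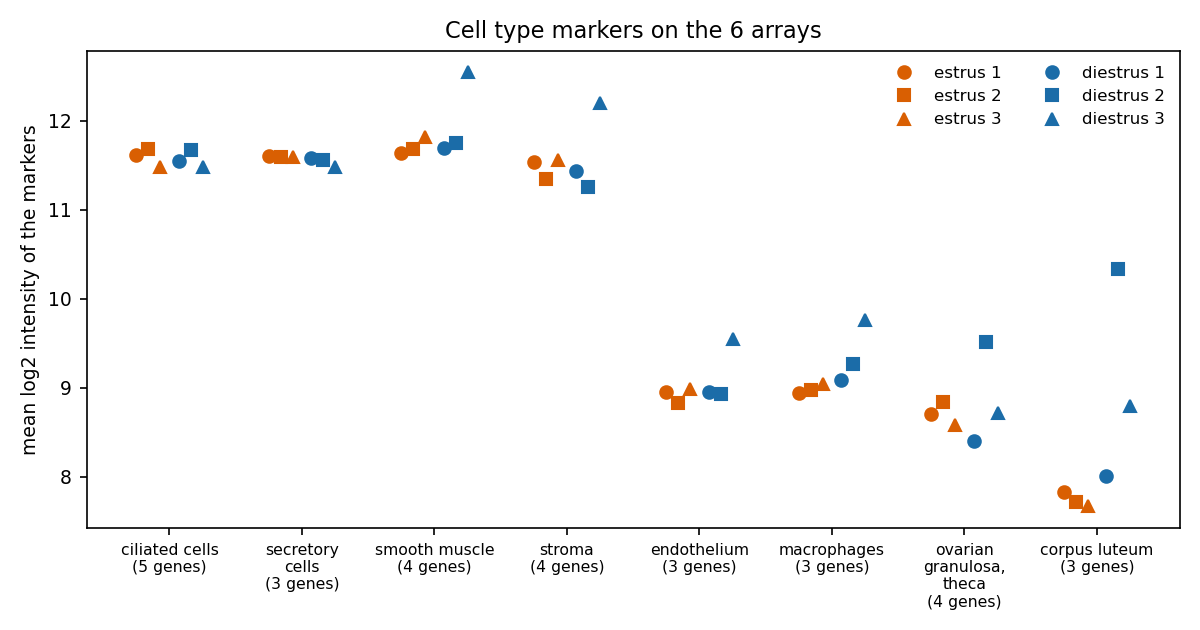
Mean log2 intensity of the markers of 8 cell types on each of the 3 estrus (orange) and 3 diestrus (blue) arrays. Ciliated and secretory markers sat within a narrow band, diestrus 3 was high for smooth muscle (12.54) and stroma (12.20), and diestrus 2 was high for corpus luteum (10.34). Levels are to be compared within a cell type only.

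Of the 28214 probe sets, 45 (0.159%) differed at an adjusted p under 0.05 in limma. Of these, 19 (0.0673%) rose and 26 (0.0922%) fell from estrus to diestrus. They stood for 17 higher and 24 lower genes, and 3 had no gene symbol. The arrays of the 2 stages did not overlap for any of the 45, which is no separate support because the same arrays gave the calls. Over all probe sets, 11.8% had no overlap. The largest called changes were the rise of Lipf and the falls of Lrat and Ptgs2, and these were the 3 calls of at least 2-fold. Over all probe sets the median difference was -0.0060, and 53.1% had the lower mean in diestrus. Without limma's adjustment, 2631 probe sets (9.33%) had a p under 0.05, 1085 of them (3.85%) higher and 1546 (5.48%) lower in diestrus. In RNA of a whole organ, fewer cells of a type and less RNA per cell cannot be told apart.

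**Figure D2:**
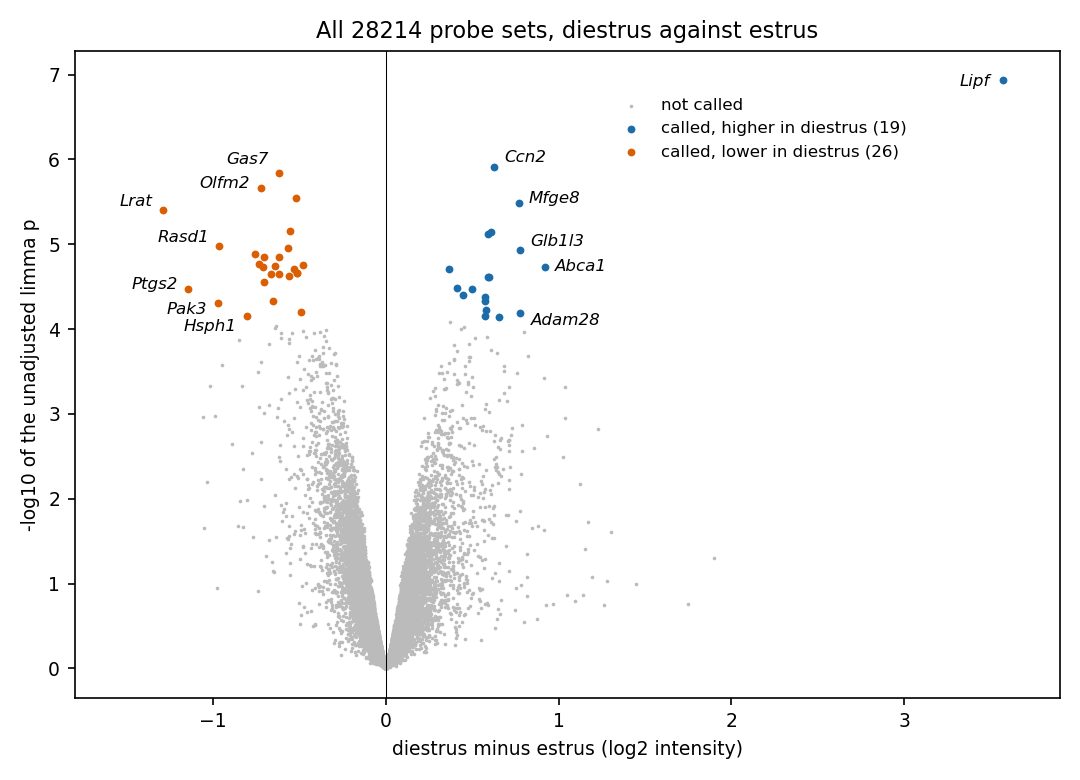
Difference between diestrus and estrus (log2 intensity, x axis) and -log10 of the unadjusted limma p (y axis) for each of the 28214 probe sets. The 19 called probe sets that were higher in diestrus are blue, the 26 that were lower are orange, and Lipf lies alone at 3.57.

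The number of calls depended on single arrays. Lipf was called with each of the 9 arrays left out in turn. Without estrus 1, without estrus 3 or without diestrus 2, it was the 1 probe set called. Without estrus 2 or diestrus 1 there were 17 calls, without the second or the third immature array 8, and without diestrus 3 there were 105, 34 higher and 71 lower. For the called genes other than Lipf, the highest adjusted p with 1 array left out lay between 0.085 and 0.199 in limma. A fit on the 6 arrays alone called none, with 2256 probe sets at an unadjusted p under 0.05 and a lowest adjusted p of 0.076. A fit with the replicate number as a block gave 13 calls, 5 higher and 8 lower. Quantile normalization again gave 32 higher and 27 lower calls and cyclic loess 32 and 28, so the side with more calls changed with the scaling.

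Lipf, which encodes gastric lipase, an acid-stable enzyme that cleaves triglycerides, had by far the largest rise. Its values were 8.93, 8.93 and 7.87 in estrus 1, 2 and 3 and 12.43, 11.88 and 12.13 in diestrus 1, 2 and 3. The estrus values lay close to or below the array medians, a level at which no detection call was at hand, and the 3 diestrus values lay far above them. The rise was 3.57 ± 0.26 (SE) on the log2 scale, or 11.9-fold, with an adjusted p of 0.00328 in limma. The values of estrus 1 and estrus 2 were identical to 3 decimals, as were values of at least 2 arrays of 1 stage for 17.2% of probe sets. Of 13 measured lipase genes, 10 had the higher mean in diestrus, against 46.9% of all probe sets, and Lipf was the 1 call. The median of the list was 0.054, and -0.013 without estrus 2. Lysosomal acid lipase, Lipa, which frees cholesterol and fatty acids inside lysosomes, was at 9.15, 9.64 and 9.47 in estrus and 9.84, 9.88 and 10.09 in diestrus. Its arrays did not overlap either, but the difference of 0.52 did not pass the test (adjusted p = 0.147 in limma). Lipa was chosen after its values were seen.

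The 250 bases before the start of Lipf are shown because this gene had the largest change. They are from RefSeq on GRCm38.p6, chr19:33960998-33961247, plus strand, written 5′ to 3′, with both occurrences of the CCAAT box (CCAAT on either strand) in capitals.

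Lipf promoter: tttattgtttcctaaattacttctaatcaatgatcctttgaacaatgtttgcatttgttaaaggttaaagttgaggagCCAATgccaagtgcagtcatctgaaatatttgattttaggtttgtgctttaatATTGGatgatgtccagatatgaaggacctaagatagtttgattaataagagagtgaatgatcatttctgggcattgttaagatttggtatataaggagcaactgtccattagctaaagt

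CCAAT was found in the promoters, 250 bases before to 50 after the start, of 41.1% of 27025 genes. Among the 11 of 17 called higher genes with a RefSeq promoter, Lipf was the 1 gene that held it. The estrogen response element (GGTCA, 3 free bases, TGACC) was searched on both strands. So was the progesterone and glucocorticoid response element (G, 1 free base, ACA, 3 free bases, TGT, 1 free base, C). Neither was in a promoter of the called genes (11 higher and 20 lower genes had a promoter). They were in 0.074% and 0.537% of all genes with a promoter. Matches this rare would seldom be seen in so few promoters, so their absence decides nothing here.

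Cholesterol handling differed in both directions. Abca1, the pump that loads cholesterol and phospholipid onto apolipoproteins outside the cell, rose. It was at 9.52, 9.74 and 9.24 in estrus and 10.31, 10.52 and 10.43 in diestrus, and the lowest diestrus array lay clearly above the highest estrus array. The rise was 0.92 ± 0.12 (SE), or 1.89-fold, with an adjusted p of 0.0229 in limma. All 9 measured genes of cholesterol efflux and the liver X receptor (LXR) pathway had the higher mean in diestrus, with a median of 0.15 against -0.0060 over all probe sets. Abca1 was the 1 call, and 3 of the 9 had an unadjusted p under 0.05 against 3.85% of all probe sets. Cyp27a1, which makes an oxysterol that activates LXR, was at 9.04, 9.06 and 9.21 in estrus and 9.34, 9.50 and 10.11 in diestrus. Its highest value was on diestrus 3, and the difference was 0.55 (adjusted p = 0.285 in limma), or 0.32 without that array. The transporter Abcg1 differed by 0.27 (adjusted p = 0.380 in limma), and by 0.17 without diestrus 2.

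Enzymes that make cholesterol mostly had the lower mean in diestrus. Fdft1, squalene synthase, which commits the pathway to sterols, fell. It was at 11.46, 11.43 and 11.69 in estrus and 10.89, 10.93 and 10.91 in diestrus, with the 3 diestrus arrays close together and all below estrus. It fell by 0.62 ± 0.081 (SE), or 1.53-fold (adjusted p = 0.0229 in limma). Of 17 measured enzymes out of 20 listed, 15 had the lower mean in diestrus, with a median of -0.25. The unadjusted p was under 0.05 for 8, all lower, against 5.48% of probe sets. Nsdhl and Msmo1, which remove methyl groups from lanosterol, differed by -0.49 (adjusted p = 0.0829) and -0.73 (adjusted p = 0.119) in limma. Idi1, isopentenyl diphosphate isomerase, had the largest difference of the list. It was at 9.62, 9.43 and 9.89 in estrus and 8.28, 8.21 and 9.35 in diestrus, and its difference of -1.03 did not pass (adjusted p = 0.254 in limma). Squalene epoxidase (Sqle), lanosterol synthase (Lss) and Cyp51, the demethylase after it, differed by -0.25, -0.31 and -0.46, none of them called. In each of these enzymes diestrus 3 was the highest or next to highest diestrus array.

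The controllers of the pathway showed no shared direction. SREBP transcription factors switch these enzymes on when membrane cholesterol is low, and Insig1 holds them back. Of 11 measured genes of SREBP control and LDL uptake, 6 had the higher and 5 the lower mean. None was called by limma at the adjusted threshold. At an unadjusted p under 0.05, 3 were higher and 2 lower, against 3.85% and 5.48% of all probe sets. Srebf1 was at 10.09, 9.96 and 10.14 in estrus and 9.81, 9.79 and 9.75 in diestrus without overlap, a difference of -0.28 (adjusted p = 0.122 in limma). Srebf2, the factor chiefly tied to cholesterol synthesis, differed by -0.12 and Insig1 by -0.45, neither of them called. The sterol regulatory element (ATCAC joined to CCCAC), searched on both strands, was in none of the 14 cholesterol synthesis genes with a RefSeq promoter. It was in 0.0999% of all genes. Its shorter form (TCAC, 1 free base, CCAC) was in 1 of the 14, Hmgcs1, and in 1.44% of all genes. An exact match as rare as the full element would seldom be seen in 14 genes, so its absence decides nothing here. CCAAT, on either strand, was in 14 of these 14 genes and in 41.1% of all genes. The enzymes beyond Fdft1, Nsdhl and Msmo1 and the regulators Srebf1 and Insig1 were chosen after their values were seen, as were Abcg1 and Cyp27a1.

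Of the 18 gene lists in the plot of list members, that of cytosolic chaperones and heat shock genes had the lowest median difference. It is called the cytosolic chaperone list here, though it also holds the mitochondrial chaperones Hspd1 and Hspe1. Hsph1, Fkbp4 and Stip1 fell. Hsph1, a nucleotide exchange factor of the Hsp70 machine, was at 11.35, 11.62 and 11.15 in estrus and 10.57, 10.50 and 10.63 in diestrus. The diestrus arrays lay within a narrow band below all estrus arrays, and estrus 2 was the highest. It fell by 0.81 ± 0.12 (SE), or 1.75-fold (adjusted p = 0.0452 in limma), and was called in 1 of the 9 fits with an array left out. Fkbp4, the immunophilin FKBP52 that works with Hsp90 on steroid receptors, was at 11.06, 11.21 and 11.23 in estrus and 10.56, 10.62 and 10.64 in diestrus. It fell by 0.56 ± 0.074 (SE), or 1.47-fold (adjusted p = 0.0229 in limma). Stip1, which passes client proteins from Hsp70 to Hsp90, was at 11.57, 11.72 and 11.52 in estrus and 11.08, 11.06 and 11.19 in diestrus and fell by 0.49 ± 0.073 (SE; adjusted p = 0.0429 in limma). Cacybp, a protein found with Hsp90 and ubiquitin ligases and not on the list, was at 12.35, 12.49 and 12.23 in estrus and 11.72, 11.65 and 11.78 in diestrus and fell by 0.64 ± 0.082 (SE; adjusted p = 0.0229 in limma). In all 4 genes the stages did not overlap.

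Of the 19 measured members of the cytosolic chaperone list, 18 had the lower mean in diestrus, with a median of -0.34. The unadjusted p was under 0.05 for 14, all lower, against 5.48% of all probe sets. Subtracting from each gene its mean over the 6 arrays, the median of the list, called its level here, was 0.18, 0.29 and 0.052 in estrus 1, 2 and 3 and -0.22, -0.22 and -0.12 in diestrus 1, 2 and 3. Estrus 2 was highest and estrus 3 lowest of its stage, and all 3 estrus arrays stood above all diestrus arrays. Dnajb1, an Hsp40 partner of Hsp70, was at 10.57, 11.25 and 10.27 in estrus and 10.05, 9.84 and 9.72 in diestrus. Its difference of -0.83 did not pass the test (adjusted p = 0.224 in limma), and without estrus 2 it was the smallest of the 9 left-out fits, at -0.55. Chordc1, a cochaperone of Hsp90, was at 10.79, 11.24 and 10.73 in estrus and 10.34, 10.15 and 10.41 in diestrus (difference -0.62, adjusted p = 0.119 in limma). The abundant Hsp90aa1 and Hspa8 differed by -0.31 and -0.19, and the mitochondrial pair Hspd1 and Hspe1 by -0.56 and -0.24, none of them called. Without diestrus 1 the difference of Hspe1 was -0.11. The list's median kept its sign and stayed within 1.5 times of this value in all the alternatives run, and 11 members had an unadjusted p under 0.05 without estrus 2. Dnajb1, Chordc1, Hspd1 and Hspe1 were chosen after their values were seen.

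Heat shock genes are switched on by HSF1 at heat shock elements, which are runs of GAA units in alternating direction. The element GAA, 2 free bases, TTC, 2 free bases, GAA was searched on both strands and chosen after the values were seen. Of 17 genes of the cytosolic chaperone list with a RefSeq entry, 4 held it in their promoters. These were Chordc1, Hsph1 and the mitochondrial Hspd1 and Hspe1. Of all 27025 genes, 0.662% held it. Hspd1 and Hspe1 are neighbours read in opposite directions, so their windows can share bases. Windows of 30 bases on GRCm38.p6 are shown for 3 of the genes that hold it because they belong to this list, with each match in capitals. They lie at chr5:149636287-149636316 (minus strand), chr9:18292255-18292284 (plus strand) and chr1:55088051-55088080 (plus strand).

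Hsph1: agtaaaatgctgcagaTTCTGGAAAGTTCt
Chordc1: tgcaaccgGAACGTTCGGGAAAATTCctga
Hspe1: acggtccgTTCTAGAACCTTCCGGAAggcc

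The chaperones of the endoplasmic reticulum (ER), where secreted proteins are folded, mostly had the lower mean in diestrus as well, and none was called. Of 25 measured genes, 23 had the lower mean in diestrus, with a median of -0.20. Limma called none at the adjusted threshold, and 13 lower and 1 higher genes had an unadjusted p under 0.05, against 5.48% and 3.85% of all probe sets. The list's level was 0.057, 0.23 and 0.069 in estrus and -0.099, -0.14 and -0.045 in diestrus, again highest on estrus 2. Creld2, an ER stress protein, was at 12.19, 12.41 and 12.23 in estrus and 11.77, 11.70 and 11.77 in diestrus (difference -0.53, adjusted p = 0.0914 in limma). Sdf2l1, a cofactor of the ER Hsp70, was at 11.37, 11.96 and 11.67 in estrus and 11.03, 10.80 and 10.85 in diestrus (difference -0.77, adjusted p = 0.190). Hspa5, the ER Hsp70 BiP, was at 13.30, 13.31 and 13.18 in estrus and 12.92, 12.74 and 13.04 in diestrus (difference -0.36, adjusted p = 0.147). None of these 3 overlapped between the stages. Of all 25 genes of the list, 15 had no overlap, against 11.8% of all probe sets. Dnajc3, Herpud1, Manf and Hsp90b1 differed by -0.50, -0.47, -0.32 and -0.20, and P4hb, protein disulfide isomerase, by 0.15 in the other direction. None was called. Without estrus 2 the difference of Herpud1 was -0.30. Without estrus 2, 8 of the list were lower at an unadjusted p under 0.05 and without diestrus 2 also 8. Wfs1, an ER membrane protein not on the list, fell from 11.44, 11.47 and 11.58 in estrus to 10.95, 10.96 and 10.73 in diestrus, by 0.62 ± 0.077 (SE; adjusted p = 0.0229 in limma). Creld2, Sdf2l1, Dnajc3, Herpud1, Manf and P4hb were chosen after their values were seen.

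The ER stress element (CCAAT, 9 free bases, CCACG), bound by ATF6 and XBP1, was also chosen after the values were seen. It contains a CCAAT box and was searched on both strands. It was in 7 of 22 ER chaperone genes with a RefSeq promoter, among them Creld2, Dnajc3, Hsp90b1 and Hspa5, and in 0.137% of all genes. Windows of 30 bases on GRCm38.p6 are shown for 3 genes of this list, with the element in capitals. They lie at chr2:34772020-34772049 (plus strand), chr15:88819515-88819544 (plus strand) and chr10:86705632-86705661 (minus strand).

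Hspa5: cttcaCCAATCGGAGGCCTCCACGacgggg
Creld2: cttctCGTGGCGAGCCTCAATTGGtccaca
Hsp90b1: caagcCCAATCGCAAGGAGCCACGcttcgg

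**Figure D3:**
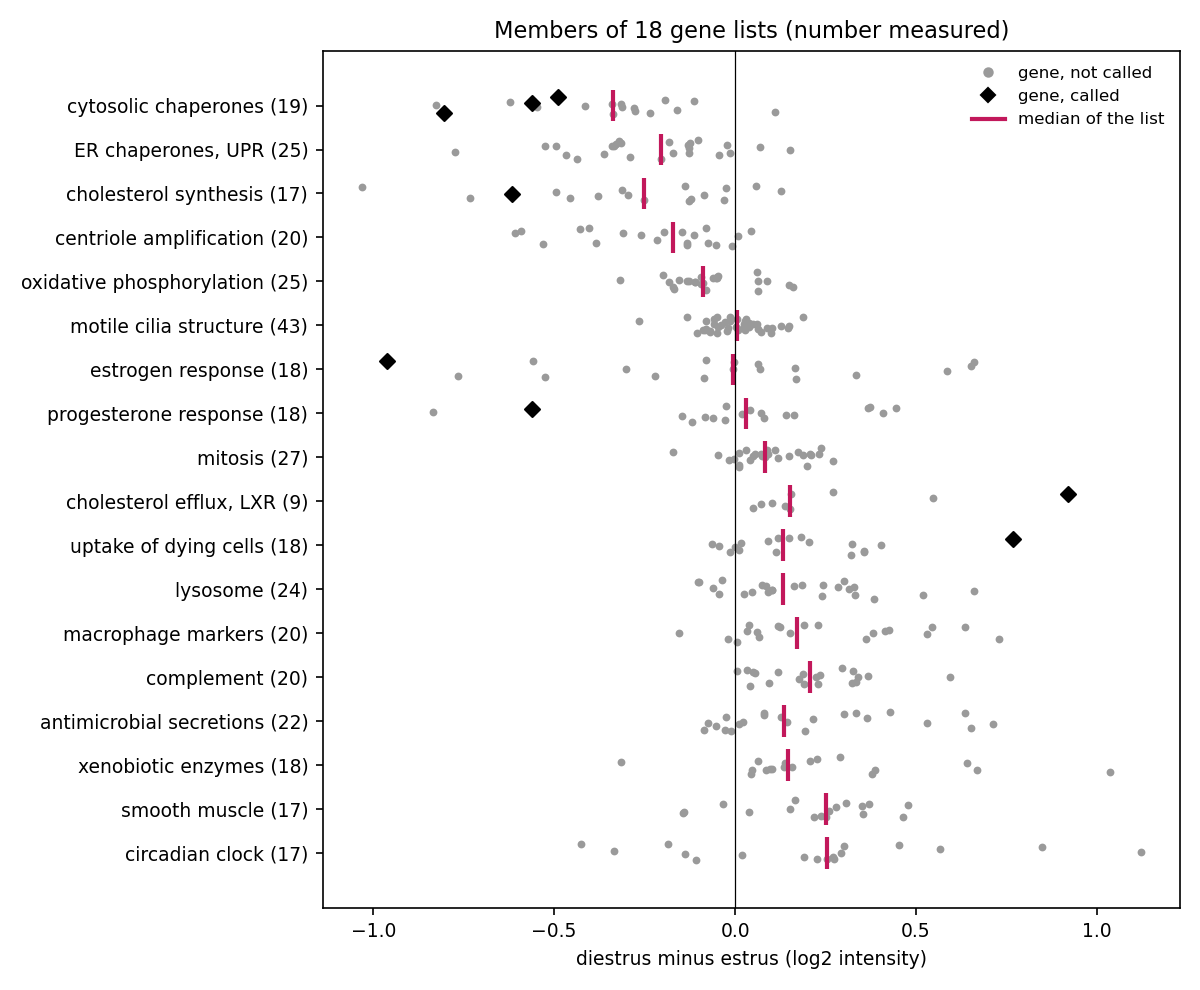
Difference between diestrus and estrus (log2 intensity) of every measured member of 18 gene lists, with called genes as black diamonds and the list's median as a red line. Cytosolic chaperones (median -0.34), cholesterol synthesis (-0.25), ER chaperones (-0.20) and centriole amplification (-0.17) lay mostly below 0, and complement (0.21) and macrophage markers (0.17) above.

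Lrat, which esterifies retinol for storage, had the largest called fall. It was at 10.58, 10.56 and 10.76 in estrus and 9.55, 9.18 and 9.31 in diestrus, so every estrus array was more than 1 log2 unit above every diestrus array. It fell by 1.29 ± 0.14 (SE), or 2.44-fold (adjusted p = 0.0158 in limma). Cyp26a1, which breaks down retinoic acid, was at 11.15, 11.34 and 11.41 in estrus and 10.78, 10.59 and 10.03 in diestrus without overlap, but its difference of -0.83 did not pass (adjusted p = 0.0910 in limma) and it was lowest on diestrus 3. Aldh1a2, which makes retinoic acid, differed by 0.36 (0.24 without diestrus 3 and 0.22 without estrus 1) and was not called. Of 17 measured retinoid genes 10 had the higher and 7 the lower mean, with a median of 0.031, so the list had no shared direction.

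Ptgs2, the inducible cyclooxygenase that starts prostaglandin synthesis, also fell. It was at 10.35, 10.79 and 10.61 in estrus and 9.60, 9.53 and 9.19 in diestrus, with no overlap. It fell by 1.14 ± 0.16 (SE), or 2.21-fold (adjusted p = 0.0281 in limma). Ptger4, a receptor of prostaglandin E2, was at 10.77, 10.77 and 10.85 in estrus and 10.62, 10.50 and 10.39 in diestrus (difference -0.30, adjusted p = 0.222 in limma). Ptgis, prostacyclin synthase, had the opposite direction, at 10.25, 10.37 and 10.34 in estrus and 10.58, 10.72 and 10.77 in diestrus (difference 0.37, adjusted p = 0.0705 in limma). Both genes were chosen after their values were seen. Of 19 measured genes of prostaglandin synthesis and receptors, 3 were higher and 5 lower at an unadjusted p under 0.05. The shares of all probe sets were 3.85% and 5.48%, and the median of the list was -0.050.

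**Figure D4:**
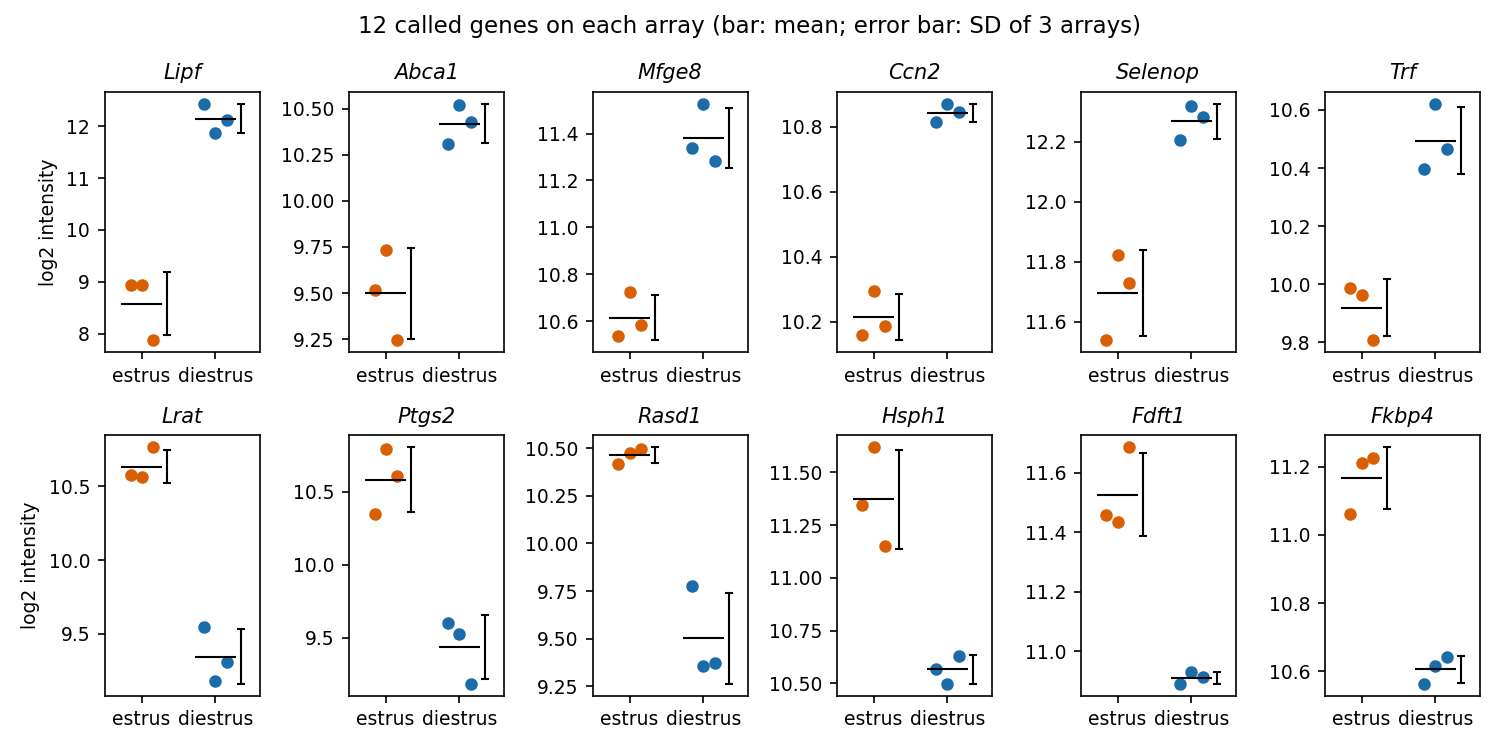
Log2 intensity of 12 called genes on the 3 estrus (orange) and 3 diestrus (blue) arrays, left to right array 1 to 3, with the mean as a bar and the SD as an error bar. Each panel has its own axis, which does not start at 0. The stages did not overlap in any panel, and Lipf runs from 7.87 (estrus 3) to 12.43 (diestrus 1).

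Hormone receptors and their known targets had no shared direction. Esr1, the estrogen receptor, was at 12.60, 12.65 and 12.59 in estrus and 12.49, 12.54 and 12.57 in diestrus (difference -0.079, adjusted p = 0.758 in limma). Pgr, the progesterone receptor and an estrogen target, was at 11.16, 11.10 and 11.27 in estrus and 10.82, 10.69 and 11.12 in diestrus, with diestrus 3 inside the estrus range (difference -0.30, adjusted p = 0.398). Of 18 measured estrogen response genes 8 had the higher and 10 the lower mean, with a median of -0.0057. Rasd1, a small GTPase of the Ras family, was the 1 call and fell. It was at 10.42, 10.47 and 10.50 in estrus and 9.78, 9.36 and 9.37 in diestrus and fell by 0.96 ± 0.12 (SE), or 1.95-fold (adjusted p = 0.0229 in limma). Greb1, an early estrogen target, was at 10.65, 10.89 and 10.81 in estrus and 10.29, 10.23 and 10.16 in diestrus and missed the threshold (difference -0.56, adjusted p = 0.0616). Igf1 and Padi2 differed by -0.53 and -0.77, each with diestrus 3 inside the estrus range, and Nrip1 by -0.22.

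Other estrogen-regulated genes had the higher mean in diestrus. Muc1, a cell surface mucin, was at 10.78, 10.69 and 10.60 in estrus and 11.23, 11.10 and 11.49 in diestrus (difference 0.59, adjusted p = 0.0580 in limma). Lcn2, which binds bacterial siderophores, was at 12.66, 12.68 and 12.16 in estrus and 12.90, 13.23 and 13.33 in diestrus (difference 0.65, adjusted p = 0.177). Ltf, lactoferrin, was at 12.65, 13.02 and 12.47 in estrus and 13.08, 13.24 and 12.82 in diestrus with overlap (difference 0.33, adjusted p = 0.648, and 0.22 without estrus 3 as the difference). Among 18 measured progesterone response genes, 10 had the higher and 8 the lower mean with a median of 0.030. Fkbp4, given above, was the 1 call. Fkbp5 and Zbtb16, both induced by progesterone in other tissues, differed by 0.079 and -0.082 (adjusted p = 0.937 and 0.965 in limma), and both are small and moved by over 1.5 times with single arrays, Fkbp5 to between 0.024 without estrus 1 and 0.19 without estrus 2 and Zbtb16 to between -0.22 without diestrus 1 and 0.033 without estrus 2. Igf1, Muc1, Nrip1 and Padi2 were chosen after their values were seen.

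Genes that build new centrioles for cilia mostly had the lower mean in diestrus. Multiciliated cells make many centrioles before they grow cilia, under Gmnc, Mcidas and Ccno and with the deuterosome protein Deup1. Of 20 measured genes of this programme, 18 had the lower mean in diestrus, with a median of -0.17. Limma called none, and 10 were lower at an unadjusted p under 0.05, against 5.48% of all probe sets. Deup1 was at 10.47, 10.22 and 9.90 in estrus and 9.65, 9.57 and 9.60 in diestrus (difference -0.59, adjusted p = 0.137 in limma). Ccno was at 9.56, 9.40 and 9.27 in estrus and 9.01, 9.04 and 8.89 in diestrus (difference -0.43, adjusted p = 0.117). Plk4, the kinase that starts centriole duplication, was at 9.64, 9.48 and 9.31 in estrus and 8.84, 8.79 and 9.21 in diestrus (difference -0.53, adjusted p = 0.133). The 3 genes did not overlap between stages, and estrus 1 was the highest array for each. Of all 20 measured genes of the list, 10 had no overlap, against 11.8% of all probe sets. Gmnc differed by -0.61 (-0.40 without diestrus 3) and Mcidas by -0.31, and Stil, a centriole assembly factor that lay below the array medians in both stages, by -0.40. The list's median stayed within 1.5 times of its value in all the alternatives run. With diestrus 2 and diestrus 3 left out, 6 genes were lower at an unadjusted p under 0.05.

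Genes of the finished cilium had no shared direction, and the difference between both lists was not tested. Of 43 measured structural genes of motile cilia, 23 had the higher and 20 the lower mean, with a median of 0.0067, which was -0.060 without estrus 3 and 0.056 without estrus 2. None was called by limma, and 0 were higher and 1 lower at an unadjusted p under 0.05, against 3.85% and 5.48% of all probe sets. Foxj1, the transcription factor that drives motile cilia genes, was at 11.37, 11.55 and 11.26 in estrus and 11.40, 11.40 and 10.98 in diestrus with overlap (difference -0.13, adjusted p = 0.910 in limma), and without diestrus 3 the difference was 0.0053. Pax8, which marks secretory cells, was at 12.09, 12.21 and 12.23 in estrus and 12.18, 12.13 and 11.76 in diestrus (difference -0.15, adjusted p = 0.770), and the difference was -0.021 without diestrus 3. Of the genes in this and the preceding paragraph, Deup1, Ccno, Plk4, Gmnc, Mcidas and Stil were chosen after their values were seen.

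Cell division genes varied from array to array. Mki67, present in all dividing cells, was at 9.24, 8.51 and 8.74 in estrus and 8.69, 8.89 and 9.63 in diestrus, so estrus 1 and diestrus 3 were high and the stages overlapped (difference 0.24, adjusted p = 0.918 in limma), and the difference was -0.041 without diestrus 3 and 0.45 without estrus 1. Of 27 measured genes of mitosis, 23 had the higher mean in diestrus, with a median of 0.082. The list's level was 0.17, -0.22 and -0.067 in estrus 1, 2 and 3 and -0.21, -0.066 and 0.43 in diestrus 1, 2 and 3. Limma called none and none had an unadjusted p under 0.05. Without diestrus 3 the median was -0.073, without estrus 1 0.22, without estrus 2 0.0082, without diestrus 1 0.21 and without diestrus 2 0.14. The 25 measured genes of DNA replication had a median of 0.045, which was -0.074 without diestrus 3. In the main fit 1 gene was higher at an unadjusted p under 0.05, against 3.85% of all probe sets.

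Genes of clearance and lysosomes mostly had the higher mean in diestrus. Mfge8, which bridges phosphatidylserine on dying cells to the cells that engulf them, rose. It was at 10.54, 10.72 and 10.58 in estrus and 11.34, 11.53 and 11.28 in diestrus, with the lowest diestrus array well above the highest estrus array. The rise was 0.77 ± 0.080 (SE), or 1.70-fold (adjusted p = 0.0153 in limma). Of 18 genes for uptake of dying cells, 14 had the higher mean, with a median of 0.13, and 7 were higher and 0 lower at an unadjusted p under 0.05, against 3.85% and 5.48% of all probe sets. Without diestrus 3 the median was 0.12, with 5 members higher at an unadjusted p under 0.05. The engulfment receptors Mertk, Axl and Lrp1 differed by 0.36, 0.40 and 0.36, none called, and Axl was highest on diestrus 3 and differed by 0.18 without it. Over the members that passed a filter on low intensity the median was 0.26. The list's level was -0.092, -0.073 and -0.082 in estrus and 0.044, 0.010 and 0.034 in diestrus, without overlap.

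Of 24 measured lysosomal genes, 19 had the higher mean in diestrus, with a median of 0.13. None was called by limma, and 11 higher and 0 lower genes had an unadjusted p under 0.05, against 3.85% and 5.48% of all probe sets. The protease Ctsd was at 11.69, 12.02 and 11.39 in estrus and 12.54, 12.36 and 12.18 in diestrus (difference 0.66, adjusted p = 0.180 in limma). Ctsa, a protective protein and carboxypeptidase, was at 11.53, 11.58 and 11.48 in estrus and 11.74, 11.85 and 11.85 in diestrus (difference 0.29, adjusted p = 0.0914). Psap, the precursor of the saposins, and Npc2, which binds cholesterol in lysosomes, differed by 0.24 and 0.38. These 4 genes did not overlap between the stages, but they were picked for their values. Of the 24 measured lysosomal genes, 12 had no overlap, against 11.8% of all probe sets. Without diestrus 3, 10 members were higher at an unadjusted p under 0.05, and without diestrus 2 the median was 0.20.

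Macrophage markers mostly had the higher mean in diestrus too. Of 20 markers, 18 had the higher mean in diestrus, with a median of 0.17. None was called, and 7 were higher at an unadjusted p under 0.05, against 3.85% of all probe sets. The list's level was -0.15, -0.100 and -0.046 in estrus and -0.032, 0.013 and 0.26 in diestrus, so diestrus 3 stood apart. The defining markers Cd68 and Csf1r, the receptor of the macrophage growth factor, differed by 0.36 and 0.38 (adjusted p = 0.281 and 0.321 in limma), and Csf1r by 0.23 without diestrus 3. Adgre1 was at 8.56, 8.51 and 8.66 in estrus and 8.66, 8.66 and 9.66 in diestrus, high on diestrus 3 alone, and differed by 0.42 with and 0.082 without that array. Lyz2, lysozyme, was at 10.57, 10.81 and 10.32 in estrus and 11.03, 11.12 and 11.46 in diestrus (difference 0.64, adjusted p = 0.197 in limma). Gpnmb, a protein of lipid-laden macrophages, was at 8.30, 8.30 and 8.14 in estrus and 8.79, 8.70 and 9.44 in diestrus (difference 0.73, adjusted p = 0.147 in limma). Gpnmb lay below the array medians on all arrays but diestrus 3, and differed by 0.50 without that array. Without diestrus 3 the list's median was 0.079, with 7 members higher at an unadjusted p under 0.05, and without diestrus 1 it was 0.27. The part of the number of macrophages in the clearance, lysosomal and complement values was not tested.

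All 20 measured complement genes had the higher mean in diestrus, with a median of 0.21. None was called by limma, and 7 were higher at an unadjusted p under 0.05, against 3.85% of all probe sets. C4b, a component of the classical pathway, was at 9.37, 9.12 and 9.18 in estrus and 9.37, 9.58 and 9.71 in diestrus (difference 0.33, adjusted p = 0.248 in limma). C3ar1, the receptor for the C3a fragment, differed by 0.60 and was highest on diestrus 3, C7 by 0.32 and C1qb by 0.19. Without diestrus 3, C3ar1 differed by 0.33 and C1qb by 0.081, and the median of the list was 0.14. The list's level was -0.14, -0.059 and -0.063 in estrus and 0.028, 0.055 and 0.23 in diestrus. With diestrus 2 and diestrus 3 left out its median was 0.13. Of 22 measured antimicrobial secretion genes, 16 had the higher mean, with a median of 0.14, and 7 were higher and 0 lower at an unadjusted p under 0.05, against 3.85% and 5.48%. Without diestrus 2 this median was 0.080, and over the members that passed a filter on low intensity 0.35. Wfdc18, of the WAP family, was at 11.83, 12.04 and 11.52 in estrus and 12.53, 12.80 and 12.21 in diestrus without overlap (difference 0.71, adjusted p = 0.175). In the paragraphs on clearance, lysosomes, macrophages and complement, Mertk, Axl, Lrp1, Ctsd, Ctsa, Psap, Npc2, Gpnmb, Cd68, Csf1r, Adgre1, C4b, C3ar1, C7 and Wfdc18 were chosen after their values were seen.

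Trf and Selenop rose. Trf, transferrin, which carries iron, was at 9.99, 9.96 and 9.81 in estrus and 10.39, 10.62 and 10.47 in diestrus and rose by 0.57 ± 0.087 (SE; adjusted p = 0.0452 in limma). Trf was called in 1 of the 9 fits with an array left out. Selenop, the plasma protein that delivers selenium to tissues, was at 11.54, 11.82 and 11.73 in estrus and 12.21, 12.32 and 12.28 in diestrus and rose by 0.57 ± 0.081 (SE; adjusted p = 0.0328 in limma), but it was called in none of the 9 fits with an array left out. Both had all diestrus arrays above all estrus arrays. Of 19 measured iron genes, 13 had the higher mean, with a median of 0.093 (0.040 without estrus 3), and Trf was the 1 call. The metalloreductase Steap4 was at 10.36, 10.57 and 10.58 in estrus and 10.95, 11.13 and 11.21 in diestrus (difference 0.59, adjusted p = 0.125), and the iron exporter Slc40a1 at 8.62, 8.50 and 8.24 in estrus and 8.71, 8.91 and 9.60 in diestrus, highest on diestrus 3 (difference 0.62, and 0.36 without diestrus 3). Gclc, which sets the rate of glutathione synthesis, went the other way, from 11.73, 11.65 and 11.80 in estrus to 11.22, 11.33 and 11.19 in diestrus, and fell by 0.48 ± 0.061 (SE; adjusted p = 0.0229 in limma). It was the 1 call among 30 measured genes of glutathione and peroxidase defence, whose median was 0.042. The plasma peroxidase Gpx3 differed by 0.45 and was not called. Steap4, Slc40a1 and Gpx3 were chosen after their values were seen.

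Of the genes of matrix, Ccn2, a matricellular protein also known as connective tissue growth factor, rose. It was at 10.16, 10.29 and 10.19 in estrus and 10.81, 10.87 and 10.84 in diestrus, with little spread in either stage. The rise was 0.63 ± 0.059 (SE), or 1.55-fold (adjusted p = 0.0135 in limma), and was as large without diestrus 3, where its call held. Mmp11, stromelysin 3, was at 9.19, 9.18 and 9.17 in estrus and 9.51, 9.58 and 9.67 in diestrus and rose by 0.41 ± 0.056 (SE; adjusted p = 0.0281 in limma). Of 25 measured elastic fibre, proteoglycan and matricellular genes, 20 had the higher mean in diestrus with a median of 0.17, and of 18 collagen chains 17, with a median of 0.15. Diestrus 3 was the highest array for both lists. Bgn, biglycan, was at 11.17, 11.19 and 11.30 in estrus and 11.62, 11.77 and 12.42 in diestrus, and Mmp2, gelatinase A, at 10.58, 10.36 and 10.34 in estrus and 10.77, 10.89 and 11.54 in diestrus. Without diestrus 3 the difference of Bgn was 0.47 in place of 0.72, and that of Mmp2 0.40 in place of 0.64. Without diestrus 3 the medians were 0.0038 for the elastic and matricellular list and -0.022 for the collagens. The collagen median was 0.093 without estrus 2, 0.23 without diestrus 1 and 0.26 without diestrus 2.

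Smooth muscle genes had the same shape. Of 17 measured contractile genes, 14 had the higher mean, with a median of 0.25. None was called, and 3 were higher and 0 lower at an unadjusted p under 0.05, against 3.85% and 5.48% of all probe sets. The list's level was -0.17, -0.11 and -0.10 in estrus and -0.10, -0.10 and 0.54 in diestrus, so diestrus 1 and 2 lay inside the estrus range or at its edge and diestrus 3 far above. Without diestrus 3 its median was 0.0078. Tagln and Myh11 differed by 0.48 and 0.35, neither called, and by 0.20 and 0.0088 without diestrus 3. The tissue inhibitors Timp1 and Timp2 differed by 0.71 and 0.49, and of 21 metalloproteinases and inhibitors 5 were higher and 0 lower at an unadjusted p under 0.05, against 3.85% and 5.48% of all probe sets. The part of muscle and stroma on diestrus 3 in these values was not tested. Bgn, Mmp2, Timp1, Timp2, Tagln and Myh11 were chosen after their values were seen.

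**Figure D5:**
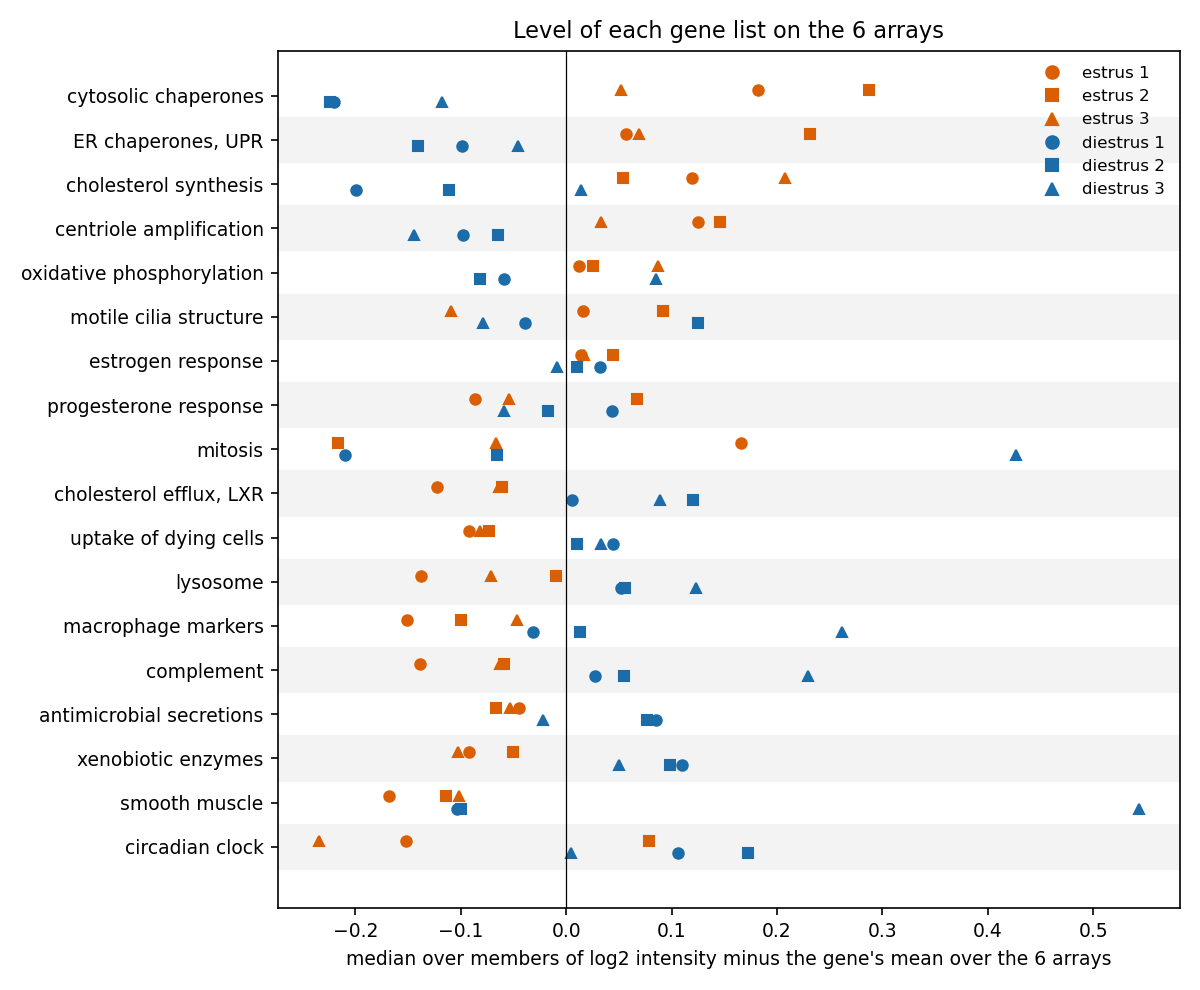
Median over the members of each list of the log2 intensity minus the gene's mean over the 6 arrays, for the 3 estrus (orange) and 3 diestrus (blue) arrays. For both chaperone lists, cholesterol synthesis and centriole amplification every estrus array lay above every diestrus array. The reverse held for cholesterol efflux, uptake of dying cells, lysosome, macrophage markers, complement, antimicrobial secretions and xenobiotic enzymes. Smooth muscle and mitosis were set apart by diestrus 3.

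The remaining called genes that fell belong to no list of their own. Stat5a, a transcription factor activated by prolactin and growth hormone, was at 10.91, 10.86 and 10.94 in estrus and 10.37, 10.14 and 10.08 in diestrus and fell by 0.71 ± 0.087 (SE; adjusted p = 0.0229 in limma). Ets2, a transcription factor of the Ras pathway, was at 11.59, 11.64 and 11.80 in estrus and 11.20, 11.10 and 11.20 in diestrus and fell by 0.51 ± 0.067. Gadd45a, induced by growth arrest and DNA damage, was at 10.82, 10.66 and 10.95 in estrus and 10.08, 9.95 and 10.20 in diestrus and fell by 0.73 ± 0.093. In each, all diestrus arrays lay below all estrus arrays. Npr2, the receptor of C-type natriuretic peptide, was at 10.996, 11.14 and 11.26 in estrus and 10.44, 10.37 and 10.47 in diestrus and fell by 0.71 ± 0.091. Pak3, a kinase activated by Rac and Cdc42, fell by 0.97 ± 0.14 to values below the array medians (8.40, 8.14 and 8.40), and Ppp2r2c, a regulatory subunit of protein phosphatase 2A, by 0.76 ± 0.093. Gas7, tied to actin and cell shape, was at 11.10, 10.99 and 11.13 in estrus and 10.47, 10.51 and 10.39 in diestrus and fell by 0.62 ± 0.059 (adjusted p = 0.0135 in limma). Olfm2, an olfactomedin, was at 10.05, 9.94 and 10.05 in estrus and 9.18, 9.31 and 9.39 in diestrus and fell by 0.72 ± 0.072 (adjusted p = 0.0153). Gas7 and Olfm2 were called in 6 of the 9 fits with an array left out. Tmtc4, Rapgefl1, Klhl29 and Lcorl fell by 0.71, 0.67, 0.57 and 0.53. The gene models 5031439G07Rik and 4933427D14Rik fell by 0.65 and 0.52. They and Ets2, Klhl29 and Lcorl were outside the naming rule and were chosen after their values were seen.

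The remaining called genes that rose are given singly. Pik3cg, a catalytic subunit of phosphoinositide 3-kinase found mainly in leukocytes, was at 9.21, 9.15 and 9.36 in estrus and 9.79, 9.77 and 9.94 in diestrus and rose by 0.59 ± 0.078 (SE; adjusted p = 0.0229 in limma). Pik3ip1, an inhibitor of the kinase, was at 9.48, 9.68 and 9.44 in estrus and 10.11, 10.16 and 10.11 in diestrus and rose by 0.59 ± 0.068 (adjusted p = 0.0212). Ppargc1a, a coactivator of mitochondrial genes, had 2 probe sets and both rose, by 0.50 and 0.58 (adjusted p = 0.0281 and 0.0425 in limma). The probe set with the rise of 0.58 lay below the array medians in both stages. Nuclear genes of oxidative phosphorylation did not go with Ppargc1a: 19 of 25 had the lower mean, with a median of -0.087 and none called. Cyp1b1, which hydroxylates estradiol and other substrates, was at 8.77, 9.07 and 8.98 in estrus and 9.45, 9.46 and 9.63 in diestrus and rose by 0.57 ± 0.082 (adjusted p = 0.0344), but was called in none of the 9 fits with an array left out. The ADAM family members Adam28 and Adamdec1 rose by 0.78 and 0.61, Adamdec1 from values below the array medians. Klhl24 rose by 0.60, Dtna, alpha-dystrobrevin, by 0.45 and Fgl2, a fibrinogen-like protein of immune cells, by 0.36. Glb1l3 rose by 0.77, with both stages below the array medians. Fgl2 and Glb1l3 were chosen after their values were seen.

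No clock gene was called by limma. Clock output swings over the day, and the labels do not give the hour of collection. Nr1d1, the repressor REV-ERB alpha, was at 10.88, 11.12 and 10.13 in estrus and 11.89, 12.11 and 11.48 in diestrus (difference 1.12, adjusted p = 0.261 in limma). Dbp, a direct target of the CLOCK and BMAL1 pair, was at 10.56, 10.87 and 10.15 in estrus and 11.50, 11.62 and 10.99 in diestrus (difference 0.85, adjusted p = 0.398). Arntl, which encodes BMAL1 and is repressed by Nr1d1, was at 8.88, 8.97 and 9.11 in estrus and 8.52, 8.46 and 8.71 in diestrus (difference -0.43, adjusted p = 0.471), and Cry1 differed by -0.33, Clock by -0.18 and Rora by 0.29. None of these 6 genes overlapped between the stages, but several of them were picked for their values. Of all 17 measured clock genes, 9 had no overlap, against 11.8% of all probe sets. Estrus 3 was the lowest array for Nr1d1 and Dbp. Of 17 measured clock genes, 7 were higher and 3 lower at an unadjusted p under 0.05, against 3.85% and 5.48% of all probe sets, with a median of 0.25, which was 0.16 without estrus 3 and 0.15 without diestrus 2. The part of the hour of collection in the other differences was not tested. Nr1d1, Dbp, Arntl, Cry1 and Rora were chosen after their values were seen.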

How the data were processed

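Biotin-labelled total RNA was hybridised by the Affymetrix protocol, per the labels. The authors deposited log2 intensities made with RMA in Affymetrix Expression Console, per the submitters' processing notes, whose versions are not given. Arrays were grouped by title. All 28214 probe sets of the 9 arrays were fitted as 3 groups with limma 3.58.1 in R 4.3.3 (lmFit, eBayes, no filter), and the diestrus minus estrus contrast was adjusted by Benjamini-Hochberg over all of them. Called means an adjusted p under 0.05, and SE is that of the contrast. The fit was tested on simulated data with independent noise for each probe set and no shift shared by an array. That run does not show how far the calls hold in these data. The number of arrays limits the precision.

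Gene symbols came from GEO's platform annotation, with 21640 probe sets naming 1 gene, 1321 several and 5253 none. The probe set with the highest mean stood for a gene in list counts. Named by rule were the 15 largest called rises and falls above the median intensity without overlap, leaving out gene models such as Rik names, up to 4 called members and the 2 brightest others per list, and 12 set genes. Genes named outside this rule were chosen after their values were seen. Of the set genes, Ovgp1 was not analysed here. Promoters were RefSeq's on GRCm38.p6. Members and lists were chosen with earlier results of these data known. Alternatives covered scaling, filters, the replicate block, the variance model, thresholds, arrays left out and the probe set of a gene.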

Additional observations from a re-analysis of the deposited data

How the results depend on the processing

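Against 45 calls (19 higher, 26 lower), a filter on low intensity gave 130 (50 and 80) and probe sets with 1 symbol 91 (34 and 57). Array weights gave 3331 (1589 and 1742, with estrus 3 weighted 8.16). The 6 arrays alone gave 0. Leaving out estrus 1 and diestrus 3 together also gave 0, with 2982 at an unadjusted p under 0.05 in limma. Lipf was thus not called in either of these fits. Leaving out diestrus 2 and diestrus 3 together left a single diestrus array, so its calls are not given. A threshold of at least 2-fold gave 3 (1 and 2) and an adjusted p under 0.01 gave 1 (1 and 0). Quantile normalization and cyclic loess gave 32 higher calls each, a share of 54.2% and 53.3% against 42.2%. Median centring gave 38 calls and an intensity trend with a robust prior 58. Leaving out 1 of the 9 arrays gave 1 to 105 calls, 1 to 34 higher and 0 to 71 lower. With the replicate number as a block there were 13 calls (5 higher, 8 lower), 12 of them shared with the 45. Deviations of same-numbered arrays correlated at 0.12, 0.169 and 0.0645, and each estrus array correlated best with its own number. The highest correlation of arrays with unlike numbers was 0.0070. The labels do not say that the numbers pair pools, so the main fit held no block. What same-numbered arrays share was not tested. The cause of these shifts was not tested, beyond the fewer arrays or probe sets entered. Of 39 called genes named, 39 were called under quantile normalization, cyclic loess, trend and weights, 33 under median centring and 10 with the block. Of 94 named genes that were not called, array weights called 74, and the filter on low intensity 7 of 82. Signs turned for Foxj1 (0.070 with array weights, -0.20 to 0.0053 with 1 array left out, 0.0033 without diestrus 2 and 3), Mki67 (-0.041 to 0.45 with 1 array left out, -0.14 without diestrus 2 and 3), Zbtb16 (0.071 with weights, -0.22 to 0.033 with 1 array left out, also turned at 0.022 without diestrus 3, 0.19 without diestrus 2 and 3), Pax8 (0.0063 without diestrus 2 and 3) and Inha (-0.42 likewise). Array weights lowered the medians of smooth muscle to 0.057, collagens to 0.0067 and macrophage markers to 0.078.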

Other observations

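Ovarian genes varied between the diestrus arrays. Cyp11a1, which starts steroid synthesis from cholesterol, was at 7.89, 7.75 and 7.76 in estrus and 7.82, 10.27 and 9.21 in diestrus, so diestrus 1 lay with estrus and diestrus 2 and 3 lay above. Akr1c18, which inactivates progesterone in the corpus luteum, was at 7.23, 6.99 and 7.15 in estrus and 7.49, 11.53 and 8.05 in diestrus, high on diestrus 2. Star, which carries cholesterol into mitochondria, was at 8.38, 8.43 and 8.10 in estrus and 8.72, 9.21 and 9.12 in diestrus without overlap (difference 0.71, adjusted p = 0.0910 in limma). The differences of Cyp11a1 and Akr1c18 were 1.30 and 1.90 (adjusted p = 0.415 and 0.536 in limma), and 0.72 and 0.65 without diestrus 2. Inha, an inhibin subunit of granulosa cells, was at 9.88, 9.78 and 9.13 in estrus and 9.18, 10.94 and 10.33 in diestrus, above the array medians on all 6 arrays and with overlap. It differed by 0.55, which was 0.16 without diestrus 2, 0.32 without estrus 3 and 1.04 without diestrus 1. Cyp11a1, Akr1c18 and Star were chosen after their values were seen. Of 18 measured ovarian genes 16 had the higher mean in diestrus, with a median of 0.12 and of 0.059 without diestrus 2. Their part in the values of other lists was not tested.

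Further differences in genes of fluid transport and metabolism did not pass the test. Aqp8, a water channel, was at 9.16, 9.23 and 9.26 in estrus and 8.12, 7.92 and 8.57 in diestrus (difference -1.01, adjusted p = 0.0910 in limma), while Aqp1 differed by 0.63 the other way (0.36 without diestrus 3). Clu, the secreted chaperone clusterin, was at 11.43, 11.72 and 11.46 in estrus and 12.001, 12.39 and 12.15 in diestrus (difference 0.64, adjusted p = 0.0705 in limma). Inmt, which methylates indole amines, was at 9.29, 10.21 and 9.57 in estrus and 10.37, 10.87 and 10.93 in diestrus (difference 1.04, adjusted p = 0.133 in limma). Of 18 measured methyltransferase, aldehyde oxidase and related xenobiotic genes, 17 had the higher mean in diestrus, with a median of 0.15, none called by limma and 6 higher at an unadjusted p under 0.05, against 3.85% of all probe sets. Aox3 and Fmo2 differed by 0.64 and 0.67. Of 23 measured interferon response genes, 20 had the higher mean with a median of 0.14, and 8 were higher and 2 lower at an unadjusted p under 0.05, against 3.85% and 5.48%. Ifit3 and Oas2 differed by 0.85 and 0.44, neither called. Aqp8, Aqp1, Clu, Aox3, Fmo2, Ifit3 and Oas2 were chosen after their values were seen. Immediate early genes, which respond within minutes to handling and other stimuli, had a median of 0.012. Of the 26 measured, 2 were higher and 1 lower at an unadjusted p under 0.05, against 3.85% and 5.48% of all probe sets.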
